A study of Homo sapiens with 6 samples.

Results

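Described here are 10 surface antigens used to type or to target myeloid leukaemia: CD38, CD82, CD33, CD44, CD47, CD99, CLEC12A, IL1RAP, CD34 and PECAM1. They were taken by gene name from a deposited RNA-seq table of 24878 genes, and all 10 were found there. The cells were MOLM-13, a human acute myeloid leukaemia (AML) line of the monocytic M5 type, and poly-A RNA was sequenced in 6 libraries. The study set cells after induction of a CaMK2D knockout, which removes a calcium/calmodulin-dependent kinase, against control cells. The KO day 3 group (2 libraries) carried a CaMK2D-KO vector inducible by doxycycline and had 3 days of doxycycline. The KO day 5 group (2 libraries) carried that vector and had 5 days of doxycycline. The control group (2 libraries) had control as its genotype and no doxycycline, and the series text gives it a control vector. Vector and doxycycline therefore differ together between KO-labelled and control libraries and cannot be told apart. Nothing in the labels says that the 2 libraries of a group were grown as separate cultures, or whether the vector lines were clones. The p-values below thus set differences against the spread among these libraries, which may be partly technical.

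Leukaemia cells are typed by the proteins they carry on their surface, and several of these proteins are also the targets of antibodies. CD38 is an enzyme of the cell surface that breaks down NAD and makes the calcium messenger cyclic ADP-ribose. CD47 binds SIRPA on phagocytes and restrains their uptake of the cell. CD33, CLEC12A and PECAM1 (CD31) carry inhibitory tyrosine motifs, called ITIMs, in their cytoplasmic tails: CD33 is a sialic acid-binding Siglec and the target of gemtuzumab ozogamicin, CLEC12A is a C-type lectin, and PECAM1 is an adhesion molecule of the immunoglobulin family. CD82 is a tetraspanin, CD44 is the hyaluronan receptor, CD99 is a small adhesion glycoprotein, IL1RAP is the co-receptor shared by receptors of the interleukin-1 family, and CD34 is the sialomucin that marks haematopoietic progenitors.

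Total counts were 19473291 and 18919951 in KO day 3, 17410879 and 17638179 in KO day 5, and 15456770 and 21081298 in control. A count of 0 in the shallowest library allows a level of up to 0.194 CPM, a count scaled to a common library total (3 counts, counting error only). The share of counts on mitochondrially encoded genes was 0.868% and 0.929% in KO day 3, 1.08% and 1.14% in KO day 5, and 3.05% and 2.52% in control, and its part in the results below was not tested. CAMK2D, the targeted gene, had 14.7 and 15.6 CPM in KO day 3, 28.98 and 28.1 CPM in KO day 5, and 23.0 and 14.5 CPM in control, scaled by TMM factors as are the CPM below except those of CD34. The KO day 3 libraries lay within the control range and the KO day 5 libraries above it, so its RNA level did not show the labelled knockout in either group, and the groups are called KO by their label only. Its log2 fold change was -0.30 (SE 0.24) at day 3 and 0.61 (SE 0.23) at day 5, with edgeR adjusted p-values of 0.437 and 0.118. The labels do not say which bases were targeted, so counts over the whole gene check the knockout only in part. Of 12 genes that mark a monocytic leukaemia line, among them SPI1, LYZ, CD33, FLT3 and MPO, 11 reached 1 CPM in a library and CD68 did not. Their summed level was 1384 to 1527 CPM in KO day 3, 1218 to 1617 CPM in KO day 5, and 3305 to 3957 CPM in control. Large parts of the control sum were FLT3 and MPO, with means of 969.0 and 941.0 CPM. Their means were 334.2 and 22.1 CPM in KO day 3, and 254.8 and 11.2 CPM in KO day 5. CD33, also in the sum, did not pass the test. The part of this sum in the results below was not tested. In bulk RNA, fewer cells of a type and less RNA per cell cannot be told apart.

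Of the 10 antigens, 9 had enough counts to be tested; CD34 did not. At day 3, 4 of the 9 passed an edgeR quasi-likelihood test with Benjamini-Hochberg adjustment over all genes (threshold 0.05), where 11.7% of the 14601 genes tested passed. CD38 rose, where 5.72% of all genes were called higher, and CD82, CLEC12A and PECAM1 fell, where 5.99% were called lower. At day 5, 6 of the 9 passed, where 14.5% of all genes passed: CD38 and CD47 rose (7.44% of all genes called higher), and CD82, CLEC12A, IL1RAP and PECAM1 fell (7.05% called lower). At an unadjusted p under 0.05 there were 5 of the 9 at day 3, where 28.9% of all genes were, and 6 of the 9 at day 5, where 30.8% were. The median log2 fold change over the 9 genes was -0.51 at day 3 and -0.49 at day 5, against 0.00 and 0.02 over all genes tested. The groups of libraries did not overlap for 6 of the 9 genes at each time, a share that was 60.4% of all genes at day 3 and 58.1% at day 5. Both comparisons use the same control libraries, so the 2 sets of fold changes are not independent. The antigens and the gene lists below were chosen with earlier results of these data known. Their shares thus do not test whether antigens changed more often than other genes. The shares of all genes, 11.7% at day 3 and 14.5% at day 5, are the background for the counts of every list below. They are not repeated beside each list.

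**Figure D1:**
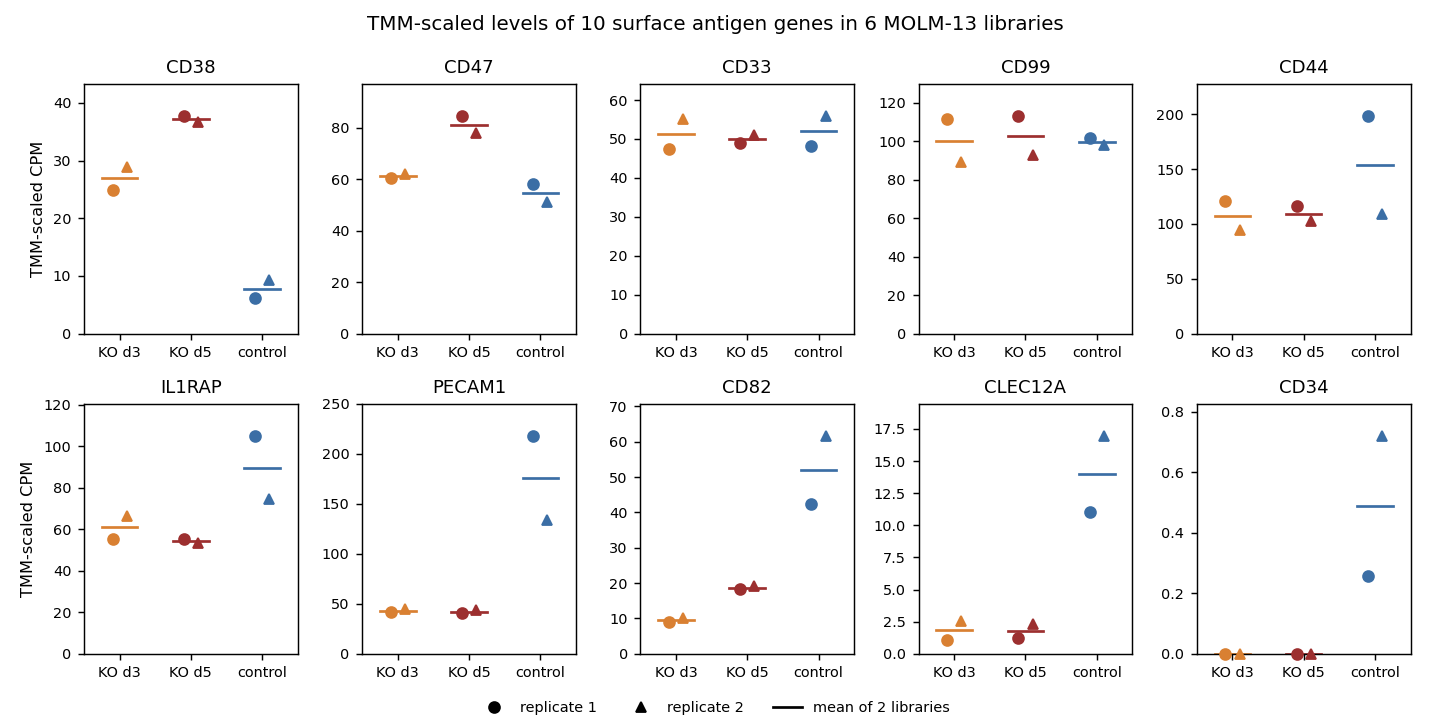
TMM-scaled CPM of the 10 antigen genes (each panel from 0, with its own scale) in KO day 3, KO day 5 and control libraries; circles are replicate 1, triangles are replicate 2, and lines are means of 2 libraries. The KO-labelled libraries sit above the controls for CD38 and well below them for CD82, CLEC12A and PECAM1, while CD33 and CD99 overlap across the 3 groups.

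CD38, the NAD-degrading enzyme, was the antigen with the largest rise at both times. It had 24.9 and 28.97 CPM in KO day 3, 37.7 and 36.7 CPM in KO day 5, and 6.17 and 9.21 CPM in control. All 4 KO-labelled libraries lay above both controls, and both day 5 libraries lay above both day 3 libraries. Its log2 fold change against control was 1.80 (SE 0.22) at day 3 and 2.27 (SE 0.22) at day 5, with edgeR adjusted p-values of 0.00371 and 0.00153. CD38 (ENSG00000004468) spans chr4:15778275-15853230 on the plus strand of GRCh38 in GENCODE release 29 and overlaps no other annotated gene.

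Of 23 tested genes that make, use or sense NAD and cyclic ADP-ribose, 1 rose and 3 fell at day 3, and 2 rose and 2 fell at day 5. Over all genes tested, 11.7% passed at day 3 and 14.5% at day 5. NAMPT, the rate-limiting enzyme of NAD salvage, had 41.2 and 45.4 CPM in KO day 3, 56.5 and 59.0 CPM in KO day 5, and 20.9 and 24.3 CPM in control. All KO-labelled libraries exceeded both controls. Its log2 fold change was 0.94 (SE 0.15) at day 3 and 1.35 (SE 0.15) at day 5 (edgeR adjusted p 0.00964 and 0.00218). SIRT1, an NAD-dependent deacetylase, rose at day 5 by 0.52 (SE 0.14, edgeR adjusted p 0.0477). SARM1, an NAD hydrolase that acts inside the cell, had 1.67 and 0.660 CPM in KO day 3, 2.09 and 2.24 CPM in KO day 5, and 8.42 and 9.40 CPM in control. It fell by 2.93 (SE 0.47) at day 3 and by 2.04 (SE 0.45) at day 5 on the log2 scale, with edgeR adjusted p-values of 0.00999 and 0.0241. NMNAT2, an enzyme of the last step of NAD synthesis, had 1 and 2 counts in KO day 3, 2 and 6 in KO day 5, and 33 and 54 in control, and its edgeR adjusted p was 0.0174 at day 3 and 0.0308 at day 5; it passed the filter on low counts through its control libraries alone, so a difference could be called in that direction only. NAMPT at day 5 was the one call of this list that held with each library left out; without a KO day 3 library its day 3 adjusted p was 0.0529 or 0.0783. SARM1 missed the threshold at day 3 without KO day 3 replicate 2 (0.0535) and had a log2 fold change of -3.73 without KO day 3 replicate 1, and at day 5 without any 1 of the control or KO day 5 libraries (0.0541 to 0.0888). NMNAT2 missed it at both times without any 1 of the libraries compared (0.0561 to 0.182). SIRT1 missed it without any 1 of the 6 libraries (0.0598 to 0.165).

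CD38 is a known target gene of retinoic acid receptors in myeloid cells. Of 11 tested genes of retinoic acid receptors, metabolism and response, none passed the edgeR test at day 3 (0 called, 2 at an unadjusted p under 0.05, 1 by DESeq2 and 1 by limma), and 1 passed at day 5. That gene was RDH10, which makes retinaldehyde from retinol, at 23.2 and 21.9 CPM in KO day 5, against 53.6 and 40.2 CPM in control (log2 fold change -1.06, SE 0.22, edgeR adjusted p 0.0182). Its call was lost without control replicate 1 (adjusted p 0.0539), KO day 5 replicate 1 (0.0682) or KO day 5 replicate 2 (0.0941). The median log2 fold change of the list was -0.35 at day 3 and -0.26 at day 5. By edgeR, 11.7% of all genes tested passed at day 3 and 14.5% at day 5.

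CD47, the ligand of SIRPA, was higher at day 5. It had 60.6 and 62.1 CPM in KO day 3, 84.6 and 77.8 CPM in KO day 5, and 58.2 and 51.0 CPM in control. The 4 KO-labelled libraries lay above both controls, by a small margin at day 3. It rose by 0.57 (SE 0.13) on the log2 scale at day 5, and the day 3 value was 0.17 (SE 0.13), with edgeR adjusted p-values of 0.0270 and 0.439. The day 5 call was lost without control replicate 2 (0.45, adjusted p 0.0846) and without any 1 of the 4 KO-labelled libraries (0.50 to 0.63, adjusted p 0.0717 to 0.127). CD47 (ENSG00000196776) spans chr3:108043094-108091862 on the minus strand.

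Among 11 tested genes of the CD47 axis and related phagocytosis signals, 2 rose and 2 fell at each time. The share of all genes that passed was 11.7% at day 3 and 14.5% at day 5. THBS1, which encodes thrombospondin, another ligand of CD47, had 49 and 58 counts in KO day 3, 35 and 38 in KO day 5, and 4 and 1 in control. Its edgeR adjusted p was 0.0131 at day 3 and 0.0166 at day 5; it passed the filter on low counts through KO-labelled libraries alone, so a difference could be called in that direction only, and its size is not given because so few control reads decide it. B2M, the light chain of MHC class I, rose by 0.69 (SE 0.17) and 0.68 (SE 0.17), with edgeR adjusted p-values of 0.0380 and 0.0342. SIRPA, the receptor of CD47, averaged 226.7 CPM in KO day 3, 199.0 CPM in KO day 5 and 328.7 CPM in control (n = 2 each), and its KO-labelled libraries lay below both controls. It fell by 0.54 (SE 0.14) at day 3 and by 0.72 (SE 0.14) at day 5 on the log2 scale (edgeR adjusted p 0.0405 and 0.0136). SIRPB1, a receptor of the same family, fell by 1.60 (SE 0.23) and 1.71 (SE 0.24), with edgeR adjusted p-values of 0.00714 and 0.00476. SIRPA and SIRPB1 have closely similar sequences, so the split of reads between them is uncertain. Leaving out libraries ended every day 3 call of this list in at least 1 case: THBS1 without KO day 3 replicate 2 (adjusted p 0.0614), SIRPB1 without KO day 3 replicate 2 (0.0518), SIRPA without control replicate 1, either KO day 3 or either KO day 5 library (0.0600 to 0.255), and B2M without either control or either KO day 3 library (0.0881 to 0.221). At day 5 THBS1 and SIRPB1 held in all 6 fits, SIRPA was lost without either KO day 5 library (0.0587 and 0.0703), and B2M was lost without either control, either KO day 3 library or KO day 5 replicate 2 (0.0555 to 0.170).

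The 3 antigens with ITIMs did not move together. PECAM1 fell at both times, with 41.7 and 44.5 CPM in KO day 3, 40.7 and 43.3 CPM in KO day 5, and 217.4 and 133.7 CPM in control. All 4 KO-labelled libraries lay within a narrow band far below both controls, although the controls differed 1.62-fold from each other. Its log2 fold change was -2.03 (SE 0.22) at day 3 and -2.06 (SE 0.22) at day 5, with edgeR adjusted p-values of 0.00315 and 0.00231. PECAM1 (ENSG00000261371) spans chr17:64319415-64413776 on the minus strand. It is also a protein of endothelial cells; of 4 endothelial markers in the table, ESAM reached 1 CPM in a library and VWF, TEK and CLDN5 did not, and the summed level was 0.715 to 1.51 CPM in KO day 3, 2.32 to 2.84 CPM in KO day 5, and 2.21 to 4.05 CPM in control. Of 5 tested partners of PECAM1 and endothelial genes none passed the edgeR test (0 called at each time); at day 3, 1 had an unadjusted p under 0.05, 1 was called by DESeq2 and 0 by limma, and at day 5 all 3 counts were 0. The list had a median log2 fold change of -0.32 at day 3 and -0.38 at day 5.

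CLEC12A, the inhibitory lectin also known as CLL-1, fell at both times and was near the lower end of detection in KO-labelled cells. It had 1.10 and 2.58 CPM in KO day 3 (21 and 47 counts), 1.25 and 2.29 CPM in KO day 5 (22 and 42 counts), and 11.1 and 16.9 CPM in control (172 and 353 counts). The groups did not overlap, and replicate 1 was lower than replicate 2 in each group. Its log2 fold change was -2.93 (SE 0.51) at day 3 and -2.98 (SE 0.51) at day 5, with edgeR adjusted p-values of 0.0126 and 0.0100. The day 3 call was lost without KO day 3 replicate 1 (-2.43, adjusted p 0.0630), and without KO day 3 replicate 2 the value was -3.65 (0.0204). CLEC12A (ENSG00000172322) spans chr12:9951316-9995694 on the plus strand and overlaps 2 genes of the other strand. The library kit is not stated to keep strand, so shared reads cannot be assigned: CLEC12A-AS1 had 6 and 14 counts in KO day 3, 18 and 0 in KO day 5, and 58 and 20 in control. CLEC1B had 3 and 8 counts in KO day 3, 0 and 0 in KO day 5, and 7 and 17 in control. Of 4 other tested C-type lectins of the same gene complex, none passed the edgeR test at day 3 (0 called, 2 at an unadjusted p under 0.05, 1 by DESeq2 and 0 by limma) and CLEC7A passed at day 5. These 4 had a median log2 fold change of -2.09 at day 3 and -1.71 at day 5. As background, 11.7% of all genes passed the edgeR test at day 3 and 14.5% at day 5. CLEC7A, the beta-glucan receptor dectin-1, had 3 and 5 counts in KO day 3, 0 and 3 in KO day 5, and 30 and 61 in control, with edgeR adjusted p-values of 0.0532 at day 3 and 0.0251 at day 5. It passed the filter on low counts through its control libraries alone, so a difference could be called in that direction only. Its day 5 call was lost without control replicate 1 (0.0621), control replicate 2 (0.138) or KO day 5 replicate 1 (0.0594).

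CD33 did not pass the test at either time. It had 47.5 and 55.2 CPM in KO day 3, 49.0 and 51.1 CPM in KO day 5, and 48.1 and 55.9 CPM in control. The ranges overlapped, and the log2 fold change was -0.02 (SE 0.15) at day 3 and -0.06 (SE 0.15) at day 5, with edgeR adjusted p-values of 0.956 and 0.841. CD33 (ENSG00000105383) spans chr19:51225064-51243860 on the plus strand. The 3 other Siglecs with enough counts gave 0 calls by edgeR, DESeq2 and limma at each time, and 0 at an unadjusted p under 0.05. They were not flat, with a median log2 fold change of 0.81 at day 3 and 0.68 at day 5. Of 10 tested kinases, phosphatases and adaptors that act at ITIMs, 3 fell at day 3, and 1 rose and 1 fell at day 5. For all genes tested, the share that passed was 11.7% at day 3 and 14.5% at day 5. SRC, a kinase that phosphorylates such motifs, fell by 2.13 (SE 0.30) at day 3 and by 1.52 (SE 0.29) at day 5 on the log2 scale, with edgeR adjusted p-values of 0.00588 and 0.0144; without KO day 5 replicate 1 the day 5 value was 0.0641. INPP5D, the phosphatase SHIP-1, fell by 0.62 (SE 0.15, edgeR adjusted p 0.0358) at day 3, and SOCS3, an inhibitor of cytokine signalling, fell by 1.04 (SE 0.26, edgeR adjusted p 0.0393). Both missed the threshold without control replicate 1 or either KO day 3 library (0.0841 to 0.249), and SOCS3 also without control replicate 2 (0.0980). PTPN11, the phosphatase SHP-2 that binds phosphorylated ITIMs, had 298.3 and 279.9 CPM in KO day 5, against 207.1 and 177.6 CPM in control. It rose by 0.59 (SE 0.12, edgeR adjusted p 0.0191) at day 5, a call lost without any 1 library other than control replicate 1 (0.0522 to 0.0939).

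CD82, the tetraspanin, had its lowest level at day 3 and an intermediate one at day 5. It had 8.97 and 10.0 CPM in KO day 3, 18.4 and 19.1 CPM in KO day 5, and 42.5 and 61.5 CPM in control. The 3 groups did not overlap. CD82 fell by 2.46 (SE 0.22) at day 3 and by 1.47 (SE 0.21) at day 5 on the log2 scale, with edgeR adjusted p-values of 0.00135 and 0.00503. CD82 (ENSG00000085117) spans chr11:44564427-44620363 on the plus strand; AC010768.2 on the other strand had 0 to 6 counts a library. Of 19 other tested tetraspanins and tetraspanin partners, none rose and 2 fell at each time. In all, 11.7% of tested genes passed at day 3 and 14.5% at day 5. TSPAN14, which helps the sheddase ADAM10 reach the surface, had 38.6 and 34.5 CPM in KO day 3, 46.8 and 37.5 CPM in KO day 5, and 95.2 and 79.0 CPM in control. It fell by 1.25 (SE 0.17) and by 1.05 (SE 0.17), with edgeR adjusted p-values of 0.00522 and 0.00775. CD53, a leukocyte tetraspanin, fell by 0.71 (SE 0.14) and by 0.84 (SE 0.14), with edgeR adjusted p-values of 0.0194 and 0.00950. At day 3 CD53 was lost without either KO day 3 library (0.131 and 0.118); at day 5 CD53 was lost without KO day 5 replicate 1 (0.0538) and TSPAN14 without KO day 5 replicate 2 (0.0514).

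**Figure D2:**
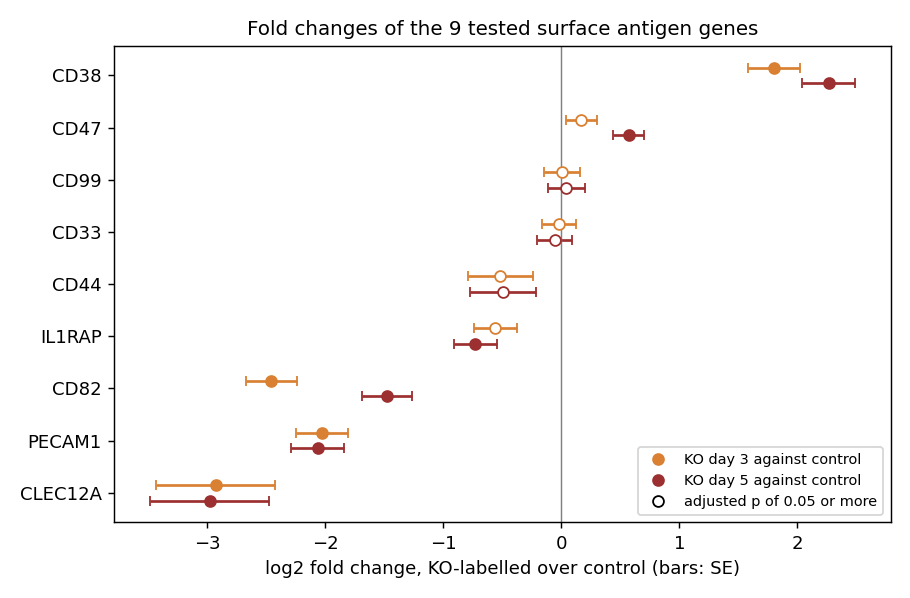
Log2 fold change (horizontal axis) of the 9 tested antigens in KO day 3 (orange) and KO day 5 (red), each over control; bars are standard errors and open circles did not pass the edgeR threshold. CD38 stands to the right of 0 at both times, CD82, PECAM1 and CLEC12A lie at -1.47 or below, and CD99 and CD33 lie within 0.06 of 0.

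CD44 and CD99, the adhesion antigens, did not pass the test at either time. CD44 had 120.5 and 94.7 CPM in KO day 3, 115.9 and 102.8 CPM in KO day 5, and 198.2 and 109.3 CPM in control. Control replicate 1 was high, and control replicate 2 lay inside the range of the KO-labelled libraries. The controls differed 1.81-fold from each other, a gap reached by 8.21% of tested genes. The log2 fold change was -0.51 (SE 0.28) at day 3 and -0.49 (SE 0.28) at day 5, with edgeR adjusted p-values of 0.277 and 0.287. Without control replicate 2 it was -0.87 (adjusted p 0.0137) and -0.89 (0.0133), and without control replicate 1 it was -0.02 and -0.01. Without a filter on low counts both times passed, at -0.51 (edgeR adjusted p 0.0113) and -0.53 (0.00633). Both also passed with the replicate number as a block, at -0.48 (edgeR adjusted p 0.0238) and -0.44 (0.0324). No label says what that number marks. CD44 (ENSG00000026508) spans chr11:35138870-35232402 on the plus strand; CD44-AS1 on the other strand had 0 to 10 counts and AL133330.1 in an intron 2 to 9. CD99 had 111.4 and 89.3 CPM in KO day 3, 113.1 and 92.9 CPM in KO day 5, and 101.8 and 98.0 CPM in control. Its KO-labelled libraries lay on both sides of the controls, and the log2 fold change was 0.01 (SE 0.15) and 0.04 (SE 0.15), with edgeR adjusted p-values of 0.984 and 0.881. The sign of this small value at day 3 turned under RLE scaling (-0.003). CD99 (ENSG00000002586) spans chrX:2691133-2741309 on the plus strand, in the pseudoautosomal region, and reads of its X and Y copies cannot be told apart.

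Among 19 tested ligands, linkers, sheddases and splicing factors of CD44, 2 rose and 3 fell at day 3, and 3 rose and 3 fell at day 5. Against control, 11.7% of all genes passed at day 3 and 14.5% at day 5. ESRP1, a splicing factor that promotes variant exons of CD44, had 17.4 and 26.0 CPM in KO day 3, 36.8 and 39.3 CPM in KO day 5, and 3.60 and 3.21 CPM in control. Every KO-labelled library exceeded both controls several times over. It rose by 2.67 (SE 0.25) at day 3 and by 3.48 (SE 0.25) at day 5 on the log2 scale, with edgeR adjusted p-values of 0.00151 and 0.000392. TRA2B, another splicing factor of those exons, rose by 0.58 (SE 0.12) and 0.55 (SE 0.12), with edgeR adjusted p-values of 0.0244 and 0.0249. MMP14, a membrane protease that cleaves CD44, had 153.7 and 131.5 CPM in KO day 3, 197.0 and 233.5 CPM in KO day 5, and 313.6 and 289.2 CPM in control. It fell by 1.08 (SE 0.14, edgeR adjusted p 0.00451) at day 3, and its value at day 5 was -0.49 (SE 0.14, edgeR adjusted p 0.0516). The day 5 value passed under RLE scaling, without a filter on low counts and with a filter of 5 CPM in 2 libraries. It also passed with DESeq2 and with the replicate number as a block, and was -0.57 without control replicate 2. TRA2B was lost at day 3 without either KO day 3 library (0.146 and 0.149), and at day 5 without control replicate 2, either KO day 3 library or KO day 5 replicate 1 (0.0566 to 0.130). Counts per gene do not separate CD44 transcripts with and without variant exons. Of 3 tested relatives and ligands of CD99, none passed at day 3 (0 called by edgeR, DESeq2 or limma, and 0 at an unadjusted p under 0.05) and 1 fell at day 5, CD99L2 by 0.46 (SE 0.13, edgeR adjusted p 0.0470). CD99L2 missed the threshold without any 1 library other than control replicate 1 (0.0860 to 0.177).

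IL1RAP, the interleukin-1 co-receptor, fell at day 5 and did not pass the test at day 3. It had 55.4 and 66.5 CPM in KO day 3, 55.1 and 53.2 CPM in KO day 5, and 104.7 and 74.7 CPM in control. All KO-labelled libraries lay below both controls, and control replicate 1 was 1.40-fold above control replicate 2. On the log2 scale the difference was -0.56 (SE 0.18) at day 3 and -0.73 (SE 0.18) at day 5, with edgeR adjusted p-values of 0.0875 and 0.0352. The day 5 call was lost without control replicate 1 (-0.47, adjusted p 0.102), KO day 5 replicate 1 (-0.77, 0.109) or KO day 5 replicate 2 (-0.70, 0.147). At day 3 a call appeared with DESeq2 (-0.57, adjusted p 0.0465) and without a filter on low counts (-0.55, edgeR adjusted p 0.00793). The replicate number as a block gave a day 3 call too (-0.545, edgeR adjusted p 0.0163). Without control replicate 2 the day 3 value was -0.77. IL1RAP (ENSG00000196083) spans chr3:190514051-190659750 on the plus strand. Of 17 tested genes of its receptor complexes and signalling, none rose and 2 fell at day 3, and 1 rose and 4 fell at day 5. Among all genes tested, 11.7% passed at day 3 and 14.5% at day 5. The 2 genes of this list that fell at both times were FLT3 and KIT, receptor kinases with which IL1RAP can associate. TAB1, an adaptor of the kinase TAK1, had 39.7 and 32.1 CPM in KO day 5, against 72.2 and 75.7 CPM in control, and fell by 1.04 (SE 0.15, edgeR adjusted p 0.00517). IL1RN, the natural antagonist of interleukin-1, fell by 0.92 (SE 0.19, edgeR adjusted p 0.0178) at day 5, which was lost without either KO day 5 library (0.0834 and 0.0611).

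CD34 was close to undetected, as 19 reads in all came from control libraries. It had 0 and 0 counts in KO day 3, 0 and 0 in KO day 5, and 4 and 15 in control. Over both libraries of a group, the 3-count floor was 0.0781 CPM in KO day 3 and 0.0856 CPM in KO day 5, and the control level was 0.520 CPM, each over raw library totals. The control level was 6.66-fold above that floor at day 3 and 6.08-fold above it at day 5. These folds allow for counting error in the KO-labelled libraries but not in the 19 control reads, so they are not lower bounds of a fall. They rest mostly on control replicate 2: without it the control level was 0.259 CPM and the folds were 3.31 and 3.02. Without control replicate 1 the folds were 9.11 and 8.31. In an edgeR fit without the filter on low counts its adjusted p was 0.157 at day 3 and 0.149 at day 5. CD34 (ENSG00000174059) spans chr1:207880972-207911402 on the minus strand. Of 7 tested relatives of CD34 and progenitor genes, KIT alone passed and fell at each time. Over all genes, 5.99% were called lower at day 3 and 7.05% at day 5.

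**Figure D3:**
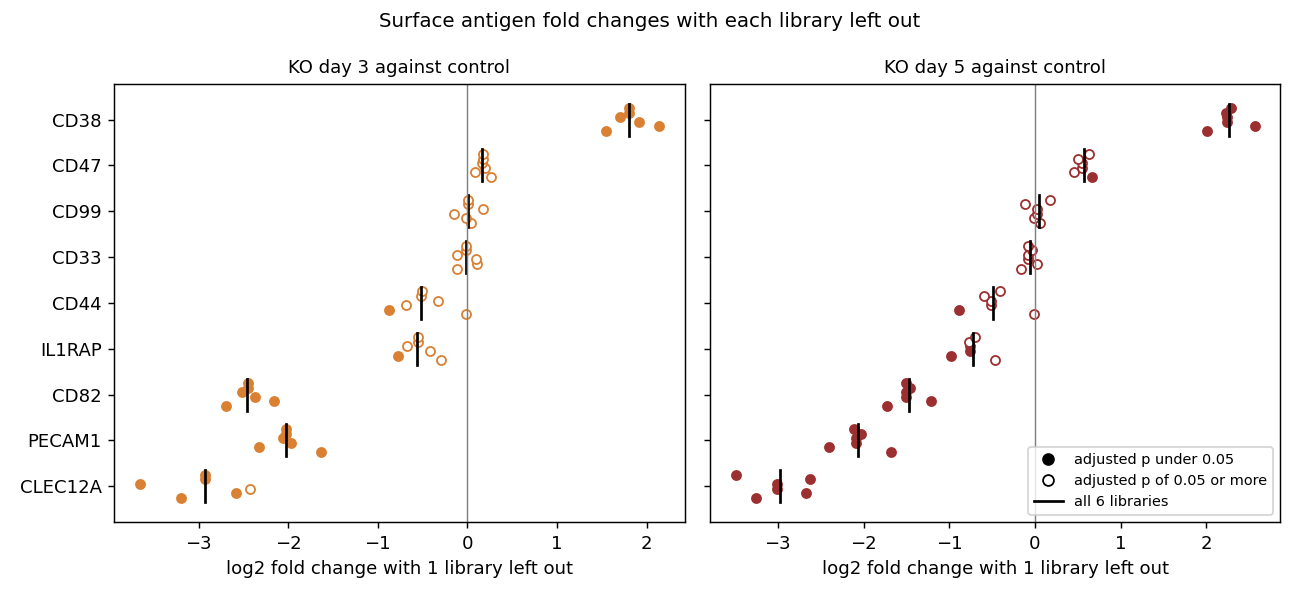
Log2 fold change over control of the 9 tested antigens with 1 of the 6 libraries left out (circles) beside the value with all 6 (black lines), for KO day 3 and KO day 5; filled circles passed the edgeR threshold. CD38, CD82 and PECAM1 passed in every fit, and CD44 ranges from -0.87 to -0.02 at day 3.

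The promoters of 4 antigens are shown to set a gene that rose (CD38), 2 that fell (CD82 and CLEC12A) and one that did not pass the test (CD33) side by side. Each line gives the 130 bases before the RefSeq start on GRCh38.p14, read 5′ to 3′ on the strand of the gene. Capitals mark GGAAGT (ETS type), GAGGAA (PU.1 type) and GGGCGG (GC box) on either strand.
CD38 chr4:15778198-15778327 plus: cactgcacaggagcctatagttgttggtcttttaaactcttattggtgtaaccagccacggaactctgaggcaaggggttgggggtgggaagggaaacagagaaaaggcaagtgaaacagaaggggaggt
CD82 chr11:44565533-44565662 plus: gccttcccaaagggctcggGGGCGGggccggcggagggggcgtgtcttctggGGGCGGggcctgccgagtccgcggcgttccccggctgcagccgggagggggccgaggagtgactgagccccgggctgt
CLEC12A chr12:9971279-9971408 plus: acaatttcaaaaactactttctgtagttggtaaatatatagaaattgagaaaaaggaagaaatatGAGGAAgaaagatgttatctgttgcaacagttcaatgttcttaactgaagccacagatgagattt
CD33 chr19:51224950-51225079 plus: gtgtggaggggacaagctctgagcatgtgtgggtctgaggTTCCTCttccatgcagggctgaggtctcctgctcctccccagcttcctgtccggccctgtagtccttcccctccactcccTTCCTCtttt

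Base composition and motifs were counted over the 250 bases before the start, for 9 antigens and for all 35093 promoters of the table. The share of G and C was 52.4% in CD38, 77.2% in CD82, 32.8% in CLEC12A and 58.8% in CD33, with 3, 26, 0 and 2 CpG dinucleotides; the median promoter had 58.0% and 11. CD82 and CLEC12A thus differ widely in composition, and CLEC12A is rich in A and T. IL1RAP, which fell at day 5, had 74.8% G and C, and PECAM1 had no promoter to show. Of the 4 windows of 130 bases shown, those of CD82 and CLEC12A lie inside the gene spans given above. Those of CD38 and CD33 run across the start of the span. Whether these starts are used in the cells was not tested. GGGCGG was in 7 of 9 antigens (42.6% of all promoters), missing in CD38 and CLEC12A, and 4 copies were in CD82. GAGGAA was in 3 of 9 (23.6% of all), with 2 copies in CD33 and 1 each in CLEC12A and CD34. GGAAGT was in CD44 only (19.5% of all), and CCAAT was in CD38, CLEC12A and IL1RAP (32% of all). AGGTCA, a site shared by retinoid receptors, was in CD44 and CD47 (12.1% of all). CACGTG (6.34% of all), TTGCNNAA (9.05%), TGANTCA (6.57%), TTCNNNGAA (6.57%) and TATAAA (10.7%) were in 0 of the 9. These 10 motifs were searched on both strands as letters in this window, and no binding was measured.

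The order of the antigens by RNA level in these bulk libraries was read from the deposited FPKM, which divide by gene length. That length is the exonic length of the gene, 3250 bases for CLEC12A, 4912 for CD99 and 11558 for IL1RAP. It need not be the length of the transcripts made, so the order between genes is approximate. In KO day 3, CD99 led at 17.5 and 22.3 FPKM, followed by CD44 (mean 10.5), CD33 (8.36) and CD47 (7.26). PECAM1 (5.403) and IL1RAP (5.13) overlapped, and CD38 (3.82), CD82 (2.28) and CLEC12A (0.548) came after them. In KO day 5, CD99 again led at 19.6 and 23.4 FPKM, followed by CD44 (11.2), CD47 (10.1) and CD33 (8.60); CD38 and PECAM1 (5.57 and 5.56) overlapped, as did IL1RAP and CD82 (4.81 and 4.74), with CLEC12A last at 0.561. In control, PECAM1 led at 17.1 and 28.2 FPKM and overlapped CD99 (mean 20.3), which overlapped CD44 (15.4), which in turn overlapped CD82 (12.8). CD33 (8.68), IL1RAP (7.76) and CD47 (6.63) came next, each overlapping its neighbour, above CLEC12A (4.29), CD38 (1.12) and CD34 (0.0526). CD38 was thus 7th in KO day 3, 5th in KO day 5 and 9th in control, and PECAM1 was 5th in KO day 3, 6th in KO day 5 and 1st in control. Of the summed FPKM of the 10 antigens, CD38 made 5.48% and 6.67% in KO day 3, 7.48% and 7.85% in KO day 5, and 0.837% and 1.46% in control. PECAM1 made 8.10% and 9.04% in KO day 3, 7.13% and 8.18% in KO day 5, and 26.1% and 18.8% in control. The sum itself was 65.4 and 61.0 FPKM in KO day 3, 74.6 and 70.7 FPKM in KO day 5, and 108.3 and 91.0 FPKM in control.

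**Figure D4:**
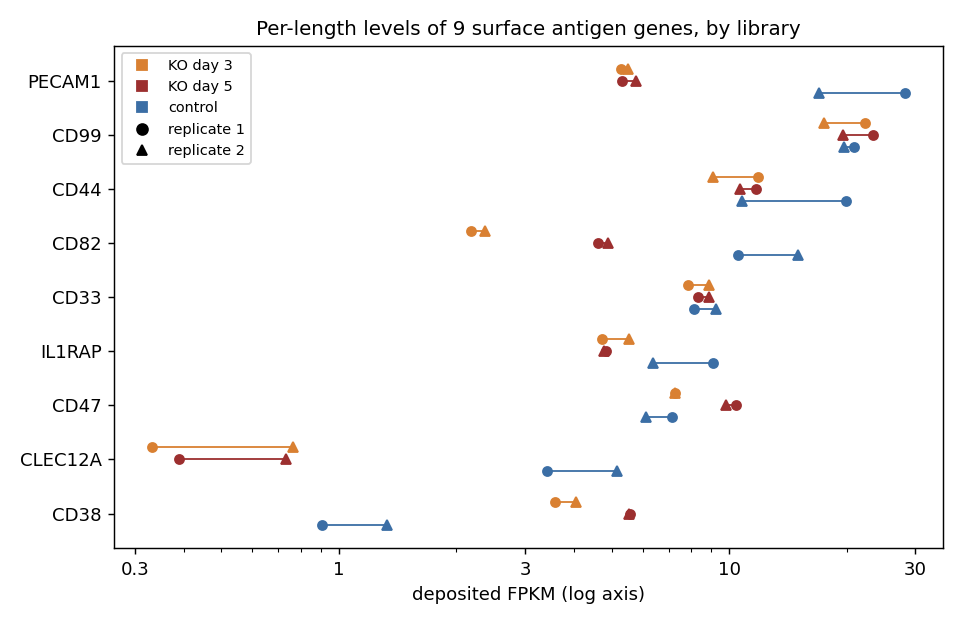
Deposited FPKM (log axis) of 9 antigens in each library, for KO day 3, KO day 5 and control from top to bottom within each gene; circles are replicate 1 and triangles replicate 2, and CD34 is left out because KO-labelled libraries were at 0. CD99 leads in both KO-labelled groups, and CD38, the lowest of these 9 in control at 0.906 and 1.33 FPKM, is at 5.55 FPKM or more in KO day 5.

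Between the KO-labelled groups, no antigen passed the edgeR test at day 5 against day 3 (0 of 9, where 0.0274% of all genes passed). At an unadjusted p under 0.05 there were 2 of 9, against 15.1% of all genes; DESeq2 called 1 of 9 and limma 0. CD82 was higher at day 5 in both libraries, with a log2 fold change of 0.98 (SE 0.21), an unadjusted p of 0.00168 and an edgeR adjusted p of 0.171. DESeq2 gave it 0.97 with an adjusted p of 0.0110, and edgeR without a filter on low counts gave 0.93 with 0.00195. CD47 was higher at day 5 by 0.40 (SE 0.13, edgeR adjusted p 0.244), and CD38 by 0.46 (SE 0.21, edgeR adjusted p 0.343). The day 5 libraries lay outside the day 3 range for 4 of the 9 antigens (49.2% of all genes): above it for CD38, CD82 and CD47, and below it for IL1RAP. PECAM1 (-0.04), CLEC12A (-0.05), CD33 (-0.04), CD44 (0.02) and CD99 (0.04) had log2 differences near 0, with standard errors of 0.15 to 0.51.

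Other surface antigens of AML that passed the test fell. Of 44 such antigens, 40 were in the table and 33 had enough counts; 0 rose and 12 fell at day 3, and 0 rose and 12 fell at day 5, against 5.99% of all genes called lower at day 3 and 7.05% at day 5. Their median log2 fold change was -0.999 at day 3 and -1.02 at day 5. This list was chosen with earlier results of these data known, so its share past the threshold is a description only. With 1 library left out, the number that fell ranged from 4 to 13 at day 3 and from 8 to 13 at day 5. At day 3, leaving out replicate 1 of KO day 3 left 4, leaving out its replicate 2 left 5, and leaving out control replicate 1 left 7. None rose in these fits except ITGA4, an integrin chain, at day 5 without control replicate 1 (edgeR adjusted p 0.0182). FLT3, KIT, CD36 and MS4A3 passed in every such fit at both times, as did IL3RA and CXCR4 at day 5. FLT3, the receptor kinase targeted by midostaurin and gilteritinib, had 340.8 and 327.6 CPM in KO day 3, 241.0 and 268.6 CPM in KO day 5, and 1063 and 875.5 CPM in control. CD36, a scavenger receptor of monocytes, had 8.39 and 4.12 CPM in KO day 3, 7.13 and 5.08 CPM in KO day 5, and 69.9 and 43.1 CPM in control. It fell by 3.17 (SE 0.40) at day 3 and 3.21 (SE 0.41) at day 5 on the log2 scale, with edgeR adjusted p-values of 0.00681 and 0.00520, and without KO day 3 replicate 1 the day 3 value was -3.76. MS4A3, a protein of granulocyte-monocyte progenitors, fell by 1.99 (SE 0.21) and 2.16 (SE 0.21), with edgeR adjusted p-values of 0.00250 and 0.00160. KIT, the stem cell factor receptor, had 2.29 and 1.21 CPM in KO day 3, 1.64 and 1.69 CPM in KO day 5, and 18.2 and 10.1 CPM in control, and its edgeR adjusted p was 0.00725 and 0.00545. IL3RA (CD123), the interleukin-3 receptor alpha chain, had 32.9 and 32.7 CPM in KO day 3, 19.2 and 22.6 CPM in KO day 5, and 54.6 and 51.8 CPM in control. It fell by 0.70 (SE 0.15) at day 3 and by 1.35 (SE 0.16) at day 5, with edgeR adjusted p-values of 0.0258 and 0.00244; the day 3 call was lost without control replicate 1 (0.0725), KO day 3 replicate 1 (0.158) or KO day 3 replicate 2 (0.178).

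**Figure D5:**
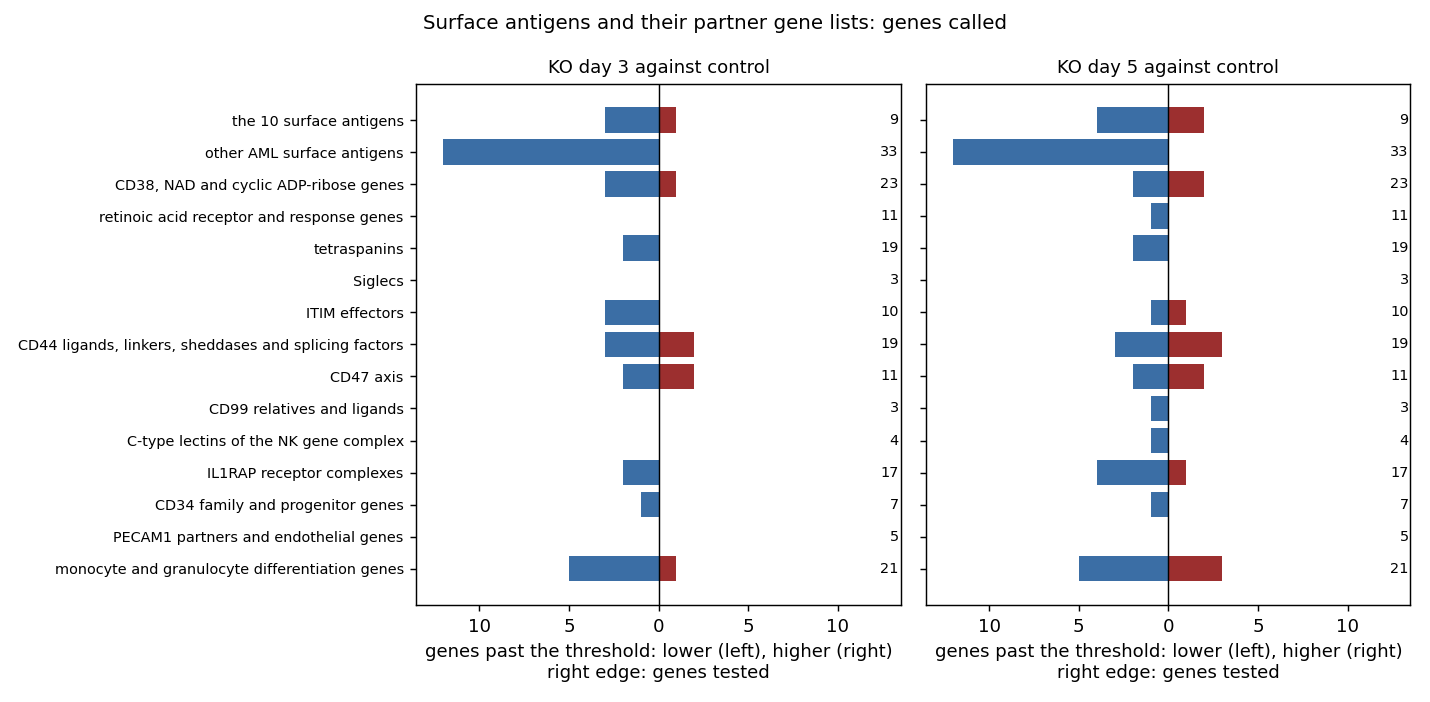
Number of genes past the edgeR threshold in the 10 antigens and in 14 lists of partner and related genes, for KO day 3 and KO day 5 each against control; blue bars to the left are lower, red bars to the right are higher, and the number at the right edge is how many were tested. The list of other AML antigens has 12 lower and 0 higher genes at each time, while the CD47 and CD44 lists have genes on both sides. Of all genes tested, 11.7% passed at day 3 and 14.5% at day 5.

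Genes of monocyte and granulocyte differentiation were counted beside the antigens. Of 21 tested, 1 rose and 5 fell at day 3, and 3 rose and 5 fell at day 5. Their median log2 fold change was -1.27 at day 3 and -0.79 at day 5. The share of all genes that passed was 11.7% at day 3 and 14.5% at day 5. AZU1, a granule protein, passed in every fit with a library left out at both times; it had 461.0 and 637.7 CPM in KO day 3, 459.8 and 520.6 CPM in KO day 5, and 1497 and 1783 CPM in control. MPO, the myeloperoxidase of granules, had 16.5 and 27.7 CPM in KO day 3, 6.85 and 15.6 CPM in KO day 5, and 662.1 and 1220 CPM in control. Its edgeR adjusted p was 0.0116 at day 3 and 0.00725 at day 5, and the day 3 call was lost without any 1 of the libraries compared (0.0502 to 0.0726). Markers of other cell types were counted as well. Of the 11 tested markers of a monocytic line, 5 fell at each time (SPI1, FLT3, MPO, CD4 and FCER1G); FLT3 held in every fit with a library left out at both times, and MPO at day 5. TRAC and NKG7, from the T cell and NK cell lists, also fell at both times, and neither call held in every such fit. The erythroid, megakaryocyte, endothelial, epithelial and mast cell lists gave 0 calls by edgeR; ESAM, the tested endothelial marker, was called by DESeq2 at day 3, and the rest had 0 at an unadjusted p under 0.05 and 0 by DESeq2 or limma. Of 8 T cell markers 2 were in the table, CD5 and TRAC, at a summed 2.20 to 3.18 CPM in KO day 3, 2.32 to 3.33 CPM in KO day 5, and 6.95 to 12.5 CPM in control. The 3 fibroblast markers in the table summed to at most 0.385 CPM in KO day 3, 0.170 CPM in KO day 5 and 0.575 CPM in control, and none reached 1 CPM.

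Among all 9684 protein-coding genes with a mean of at least 5 CPM, the genes most like each antigen over the 6 libraries were found by the root mean square difference of centred log2 CPM. For CD38 they were SEC11C (0.089), a signal peptidase subunit, then ATF5 (0.178) and GIN1 (0.185). For CD82 they were CCNG2 (0.223), PHETA1 (0.234) and AVPR2 (0.269), and for CLEC12A they were TSPOAP1 (0.204), DRAM1 (0.209) and CTSH (0.210). For PECAM1 they were TLR2 (0.142), a receptor of bacterial lipoproteins, and the mitochondrial transcripts MT-CO1 (0.177) and MT-CO3 (0.178). For IL1RAP they included DLGAP4 (0.069) and SIRPA (0.070), and for CD47 they were UBXN4 (0.028), MNAT1 (0.029) and MTREX (0.035). For CD33 the nearest was COX7A2L (0.037), for CD44 TFAP2A (0.037) and for CD99 ZNF669 (0.039). Among the antigens themselves the nearest pair was CD33 and CD99 (0.202) and the farthest was CD38 and CLEC12A (2.23), while CD82 and PECAM1 (0.538) and CLEC12A and PECAM1 (0.579) were the nearest pairs among those that fell at both times.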

How the data were processed

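Poly-A RNA of 6 MOLM-13 libraries was measured. Groups and replicate numbers came from the labels. The deposited table holds, per the file headers, raw read counts and FPKM for each library. The submitters' processing notes list HISAT2, HTSeq 0.11.2, DESeq2 1.26.0 and GRCh38 without roles, and how reads were counted is not given in the sources used here. The FPKM deposited by the authors equal counts over library total and a whole gene length (within 0.001 base for 100% of genes). All 24878 gene IDs matched GENCODE release 29, used for loci and classes. Promoters came from RefSeq, where 9 of the 10 antigens matched and PECAM1 did not.

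Counts were tested with edgeR 4.0.16 in R 4.3.3: filterByExpr (minimum count 10, total 15; 14601 genes, at least 99.88% of counts), TMM factors (0.962 to 1.04), 1 robust quasi-likelihood model of the 3 groups without a block, and Benjamini-Hochberg adjustment over all genes tested at 0.05. Residual degrees of freedom were 3 and the median prior 5.12. Log2 fold changes use a prior count of 0.125, and SE is the size of that value divided by the root of the F statistic. The procedure was tested on simulated counts drawn independently for each library. That simulation held no link between libraries of the same replicate number. Libraries of a group differed beyond sampling noise (chi-square over degrees of freedom 17.4 to 37.7), so none was a repeat deposit. Precision is limited by 2 libraries a group.

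The 16 alternatives were RLE and upper-quartile factors, no filter, 5 CPM in 2 libraries, DESeq2 1.42.0, the 4 libraries compared alone, the replicate number as a block, limma 3.58.1 on log2 FPKM (pseudocount 1 or 0.1, genes averaging 0.5 FPKM or more; or pseudocount 1, unfiltered), and each library left out. The members, the 14 partner lists and the 10 cell type marker lists were chosen with earlier results of these data known. Named genes are all members, CAMK2D, up to 4 called genes a list, ranked by adjusted p in the comparisons with control (some given by count only), and the 3 genes most like each tested member. Other genes named from a list illustrate it and carry no value. Some results of these lists and of the likeness search, the B cell list among them, are not reported here. The summed CPM of the other marker lists were as follows. For NK cells they were 148.8 to 157.7 in KO day 3, 169.8 to 184.3 in KO day 5 and 196.6 to 229.5 in control. For erythroid cells they were 21.8 to 22.9 in KO day 3, 19.99 to 24.0 in KO day 5 and 23.1 to 31.5 in control. For megakaryocytes they were 10.1 to 10.5 in KO day 3, 7.58 to 15.1 in KO day 5 and 9.83 to 16.6 in control. For epithelial cells they were 18.7 to 25.2 in KO day 3, 21.5 to 30.7 in KO day 5 and 17.5 to 34.1 in control. For mast cells, basophils and eosinophils they were 0.660 to 1.56 in KO day 3, 1.75 to 1.97 in KO day 5 and 1.49 to 1.67 in control.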

Additional observations from a re-analysis of the deposited data

How the results depend on the processing

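CD38, CD82 and PECAM1 kept their direction and their call in all 16 alternatives at both times, as did CLEC12A at day 5. CLEC12A at day 3 was lost without KO day 3 replicate 1 and with limma on unfiltered log2(FPKM + 1) (-1.77, adjusted p 0.0551). CD47 and IL1RAP at day 5 were each lost in 7 of 16, among them the fit of the 4 libraries compared (adjusted p 0.0690 and 0.0528). With the replicate number as a block, 6 antigens were called at day 3 and 7 at day 5, CD44 (adjusted p 0.0238 and 0.0324) and, at day 3, IL1RAP (0.0163) being added; DESeq2 called 5 at day 3 and 6 at day 5. Deviations of same-numbered libraries correlated at 0.348 to 0.423, and the titles carry a letter, A or B, that runs with the number. There are only 2 numbers and no label says what they mark, so whether they pair the cultures was not settled. Between the days, CD82 was called without a filter, with DESeq2 and with the block (1 antigen each).

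Over all genes, the numbers called at day 3 were 2925 without a filter, 2638 with DESeq2, 4064 with the replicate block, 254 with limma on unfiltered log2(FPKM + 1), and 282 to 1906 with a library left out, the lowest without KO day 3 replicate 1 (282), KO day 3 replicate 2 (333) and control replicate 1 (1059). At day 5 they were 3234 without a filter, 1315 with the 4 libraries alone, 4418 with the block, 605 with unfiltered limma, and 723 to 1874 with a library left out, the lowest without KO day 5 replicate 2 (723), KO day 5 replicate 1 (914) and KO day 3 replicate 1 (1370). Between the days they were 599 without a filter, 435 with DESeq2, 1117 with the block, 1 with limma on log2(FPKM + 1), 0 on log2(FPKM + 0.1) and 0 unfiltered, and 1 to 15 with a library left out (14 without control replicate 1, 15 without control replicate 2). The antigens called with a library left out numbered 3 to 6 at day 3, 4 to 6 at day 5 and 0 between the days. Apart from fits with fewer libraries or genes, the cause was not tested.

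Values near 0 changed sign, none of them called. At day 3, CD99 was -0.003 with RLE, -0.02 with 5 CPM, -0.002 with DESeq2, -0.004 with the block, -0.037, -0.039 and -0.037 with the 3 limma fits, and -0.152 to 0.175 with a library left out, which moved CD33 from -0.118 to 0.103 and CAMK2D from -0.592 to 0.068. At day 5, leaving out a library gave -0.165 to 0.029 for CD33 and -0.118 to 0.178 for CD99. Between the days, the limma fits gave 0.039, 0.043 and 0.039 for CD33, 0.017, 0.062 and 0.017 for CLEC12A, and 0.033, 0.038 and 0.033 for PECAM1; no filter gave -0.026 for CD44 and -0.010 for CD99; leaving out a library gave -0.179 to 0.032 for CD33, -0.184 to 0.171 for CD44, -0.157 to 0.170 for CD99 and -0.582 to 0.645 for CLEC12A. CAMK2D at day 5 was called with the block (0.63, adjusted p 0.0198) and without control replicate 1 (0.97, 0.0317). Depth limits genes with few reads in a group (CD34, CLEC7A, NMNAT2, THBS1), and 2 libraries a group limit every test.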
